A study of Glycine max with 4 samples.

Results

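Of the 7042 regions that the GmWRI1 antibody enriched in ChIP replicate 1 from soybean embryos, 653 were narrow, shared and close to a chromosome end. A region was narrow when it spanned less than 800 bp and shared when a replicate 2 region overlapped it by at least 1 bp. It was an end region when its midpoint lay within 5 Mb of either end of 1 of the 20 chromosomes. The reference was the 933 narrow shared regions elsewhere on these chromosomes. The 653 end regions comprised 335 at high-coordinate ends and 318 at low-coordinate ends. Among narrow replicate 1 regions of the 20 chromosomes, 24.6% were shared, and sharing was itself part of the selection.

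Both ChIP samples came from cotyledon (cot) stage embryos of the cultivar Williams 82, taken from seeds measuring 3.5 to 4.5 mm. Each of the 2 ChIP samples has an input sample, sonicated chromatin kept back before immunoprecipitation. The antibody was raised to a GmWRI1-A peptide and, per the study, binds GmWRI1-B too, so the regions do not separate these proteins. The deposited data are 1 region list per ChIP replicate, called against input, with coordinates of genome build Wm82.a2.v1. By the study's own assessment, these ChIP libraries missed the ENCODE criteria for library quality.

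WRINKLED1 (WRI1) is an AP2 family transcription factor that, in Arabidopsis seeds, turns on genes carrying carbon from sucrose through late glycolysis into plastid fatty acid synthesis. Pyruvate is made into acetyl-CoA and then malonyl-CoA, and an acyl chain is extended on acyl carrier protein by a repeated cycle of condensation, reduction, dehydration and reduction. The fatty acids feed triacylglycerol, the storage oil of the seed. In ChIP-Seq, a site held by the factor appears as a local pile of fragments, and a narrow region usually has 1 such pile, whose highest point is the summit.

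Fold enrichment below is the authors' ratio of ChIP fragments to the local background expected from input at the summit, with 1 added to both terms. It is therefore lower than fragments divided by background. Replicate 2 had 2142 regions and its lowest local background was 2.40 fragments, against 7042 regions and 3.37 fragments in replicate 1. All values rest on 1 pair of ChIP libraries, so differences between replicates are described without a test, and regions of the same libraries are not replicates. The end regions were selected on width, overlap between replicates and position. Width, overlap and fold enrichment all come from the same comparison of ChIP with input, and they are given as a description.

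Narrow width and overlap were set by the selection, and the end regions were of moderate median enrichment. In replicate 1 their median fold enrichment was 8.75 (95% interval of the median over regions, 8.20 to 9.38). In replicate 2 the median was 6.14 (5.82 to 6.44). The median summit held 53 fragments in replicate 1 and 27 in replicate 2. Fold enrichment ran between 1.49 and 54.4 in replicate 1 and between 1.49 and 45.6 in replicate 2, so the list spans weak and very strong sites. The median end region was 377 bp wide in replicate 1, and its partner was 256 bp wide in replicate 2. The replicate 1 region was the wider in 613 of 653 cases and contained its partner whole in 490.

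The summits of the replicates lay a median of 21 bp apart in the end regions (95% interval 18 to 23 bp), and 609 of 653 pairs were within 100 bp (93.3%, Wilson 95% interval 91.1% to 94.9%). Elsewhere the median was 20 bp and 95.4% were within 100 bp (93.8% to 96.6%). These intervals overlap. No end region shared its partner with another replicate 1 region, and the 653 partners were 653 distinct replicate 2 regions.

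Enrichment was lower in replicate 2 at most end regions. The median log2 ratio of replicate 2 to replicate 1 was -0.41 (95% interval -0.45 to -0.36), and 536 of 653 end regions were lower in replicate 2 (82.1%), against a background of 86.8% over all shared regions of the 20 chromosomes. An over 2-fold difference occurred at 87 end regions (13.3%, Wilson 95% interval 10.9% to 16.1%) and at 84 regions elsewhere (9.003%, 7.33% to 11.01%), with 19.2% over all shared regions. Regions of high local background, defined below, had log2 ratios between -0.58 and 0.18 near ends and between -0.68 and 0.19 elsewhere. None of them was over 2-fold apart. They made up 6.58% of end regions and 16.0% of regions elsewhere, and both shares above include them in the total. All 87 end regions over 2-fold apart were lower in replicate 2. The most unequal lay beside an aspartate aminotransferase gene, Glyma.06G275700, enriched 18.1-fold in replicate 1 and 3.997-fold in replicate 2. It was singled out after its values were seen.

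The end regions and the narrow shared regions elsewhere had nearly the same median enrichment when regions of high local background were kept in. Elsewhere, the medians were 8.71-fold in replicate 1 and 6.18-fold in replicate 2. The log2 difference of the medians, end regions minus elsewhere, was 0.01 in replicate 1 (95% interval -0.10 to 0.14) and -0.01 in replicate 2 (-0.10 to 0.08). The sign differed between the replicates. Strong sites, of at least 20-fold enrichment in both replicates, made up 39 of 653 end regions (5.97%, Wilson 95% interval 4.399% to 8.06%) and 60 of 933 regions elsewhere (6.43%, 5.03% to 8.19%).

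**Figure D1:**
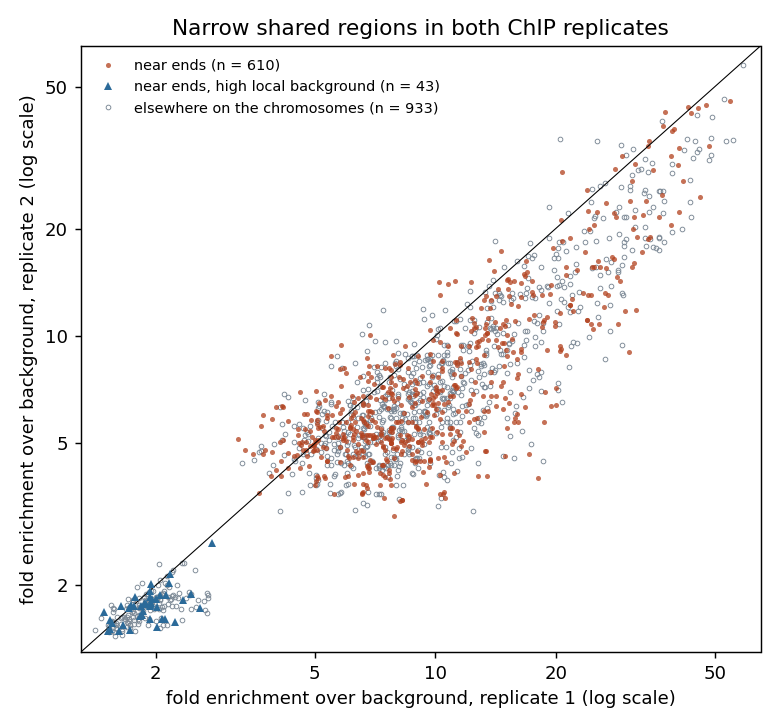
Fold enrichment of each narrow shared region in replicate 1 (horizontal, log scale) and replicate 2 (vertical, log scale). Filled red points are end regions, blue triangles are the 43 end regions of high local background, open grey points are the 933 regions elsewhere, and the line marks equal values. End regions and regions elsewhere cover the same range, most lie below the line, and the high-background regions form a separate cloud under 3-fold.

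The groups differed in how many of their regions stood on a high local background, defined as over 10 times the lowest background of the list. These numbered 43 of 653 end regions (6.58%, Wilson 95% interval 4.93% to 8.75%) and 149 of 933 regions elsewhere (16.0%, 13.8% to 18.5%), against 3.55% of all replicate 1 regions on the 20 chromosomes. The intervals do not overlap, but they treat regions as independent, and some of these end regions lay in clusters. At these 43 end regions the median background was 101 fragments in replicate 1 and 102 in replicate 2, and median enrichment was 1.93-fold in replicate 1 and 1.75-fold in replicate 2. The partner was of high background in all 43 cases.

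High-background end regions came in part in tight clusters. At the high-coordinate end of chromosome 1, 6 of them lay between 53482349 and 53488985, within 6637 bp. At the high-coordinate end of chromosome 15, 5 lay between 47403134 and 47408137, within 5004 bp, and fold enrichment there was between 1.86 and 2.11 in replicate 1. At the high-coordinate end of chromosome 12, another 2 lay 878 bp apart, with 2.24 and 2.06 in replicate 1 and 1.58 and 1.88 in replicate 2. At least 1 was present in 24 of the 40 end windows. None of the 38 on chromosomes 1 to 15 had a gene named in the study's lists of bound regions, against 371 of the 474 other end regions there. Those lists hold only regions or sites that the study kept as bound. A missing name therefore does not show that a region lies away from genes.

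Without the high-background regions, the median enrichment of the 610 remaining end regions was 9.26 in replicate 1 (95% interval 8.73 to 9.88) and 6.41 in replicate 2 (6.12 to 6.71). In the 784 remaining regions elsewhere it was 9.68 in replicate 1 (9.30 to 10.3) and 6.87 in replicate 2 (6.59 to 7.11). Both replicates had the lower median in the end regions. The log2 difference of the medians, end regions minus elsewhere, was then -0.06 in replicate 1 (95% interval -0.19 to 0.05) and -0.10 in replicate 2 (-0.19 to -0.01). These intervals run over regions of the same libraries, which are not replicates, so they are no test. Under every other setting tried, the replicate 2 interval included 0. Those settings all kept the high-background regions, so they do not bear on the difference without them.

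The 40 end windows contained 41.2% of the narrow shared regions (653 of 1586, Wilson 95% interval 38.8% to 43.6%). They made up 21.1% of the summed length of the 20 chromosomes, each taken as the position of its last listed region. They held 43.8% of all narrow replicate 1 regions, shared or not (42.6% to 45.0%), and 42.7% of narrow replicate 2 regions (40.6% to 44.9%). Of shared regions of at least 800 bp, 47.1% were in the end windows (178 of 378, 42.1% to 52.1%). The density of genes and of mappable sequence along the chromosomes was not analysed here.

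Replicate 2 recovered narrow regions near the ends about as often as elsewhere once high-background regions were set aside. Of 2822 narrow replicate 1 regions near ends, 653 were shared (23.1%, Wilson 95% interval 21.6% to 24.7%), and of 3620 elsewhere, 933 were (25.8%, 24.4% to 27.2%). Without high-background regions the share was 22.1% near ends (610 of 2764, 20.6% to 23.7%) and 22.8% elsewhere (784 of 3436, 21.4% to 24.3%). Read from replicate 2, 844 of its 868 narrow regions near ends overlapped a replicate 1 region.

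Without high-background regions, the shared fraction was higher at higher replicate 1 enrichment, near ends and elsewhere. Near ends, 12 of 606 regions under 4-fold were shared (1.98%) and 36 of 900 between 4-fold and 5-fold. The share was 19.1% between 5-fold and 7-fold (Wilson 95% interval 16.3% to 22.1%), 57.2% between 7-fold and 10-fold (51.3% to 63.0%) and 89.2% between 10-fold and 15-fold (83.2% to 93.2%). All 143 end regions at or above 15-fold were shared (97.4% to 100%). Elsewhere the shares of the 3 upper steps were 56.5%, 88.9% and 100%. With high-background regions included, the lowest step did not follow this order. Under 4-fold, 55 of 664 regions near ends were then shared (8.28%, 6.42% to 10.6%) and 158 of 945 elsewhere (16.7%, 14.5% to 19.2%), more than between 4-fold and 5-fold in both cases. The 2169 narrow regions near ends that replicate 2 did not overlap were enriched by a median of 4.48-fold on 23 fragments, and the highest of them reached 14.7-fold.

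**Figure D2:**
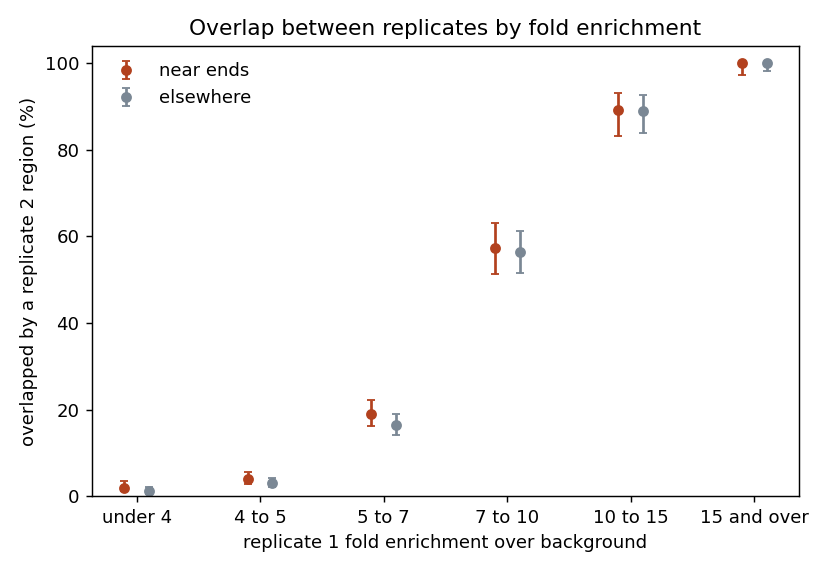
Share of narrow replicate 1 regions overlapped by a replicate 2 region (vertical, percent) in steps of replicate 1 fold enrichment (horizontal), without high-background regions. Points are shares near ends (red) and elsewhere (grey), and bars are Wilson 95% intervals. The share near ends goes from 1.98% under 4-fold to 100% at 15-fold and over, and the bars of both groups overlap in every step.

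Taken over all chromosomes, the ends were balanced. The high-coordinate ends had 51.3% of the end regions (335 of 653, Wilson 95% interval 47.5% to 55.1%). The median fold enrichment in replicate 1 was 8.98 at high-coordinate ends (95% interval 8.16 to 9.72) and 8.66 at low-coordinate ends (7.84 to 9.68). In replicate 2 it was 6.17 at high-coordinate ends (5.83 to 6.59) and 6.08 at low-coordinate ends (5.66 to 6.48). The shared fraction of narrow replicate 1 regions was 23.1% at high-coordinate ends (20.96% to 25.3%) and 23.2% at low-coordinate ends (21.1% to 25.5%). High background marked 8.06% of end regions at high-coordinate ends (5.598% to 11.5%) and 5.03% at low-coordinate ends (3.12% to 8.02%).

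Single chromosomes were less even. A window held between 2 and 31 end regions, with a median of 15. The high-coordinate end had more on 8 chromosomes, the low-coordinate end on 11, and on chromosome 9 both ends had 13. The ends of 1 chromosome differed at least 2-fold on 7 of 20 chromosomes. The fullest windows were the high-coordinate end of chromosome 1, with 31 end regions, against 14 at its low-coordinate end, and the low-coordinate end of chromosome 11. The high-coordinate end of chromosome 11 had 14 and its low-coordinate end 27.

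The emptiest windows were both low-coordinate ends. On chromosome 13 the high-coordinate end had 25 end regions and the low-coordinate end 2. On chromosome 20 the high-coordinate end had 21 and the low-coordinate end 5. The 2 regions at the low-coordinate end of chromosome 13 were not weak. The one from 2117338 to 2117876, beside Glyma.13G007800, was enriched 31.1-fold in replicate 1 and 15.6-fold in replicate 2. The other, from 679281 to 679569, had 9.91 in replicate 1 and 6.00 in replicate 2. At the low-coordinate end of chromosome 20, replicate 1 fold enrichment was between 1.73 and 16.1.

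The imbalance was present before sharing was asked. The narrow replicate 1 regions, shared or not, numbered 107 at the high-coordinate end of chromosome 13 and 3 at its low-coordinate end, and 74 and 26 at these ends of chromosome 20. On 16 of the 19 chromosomes with unequal numbers, the end with more end regions also had more narrow replicate 1 regions. Windows differed in the shared fraction between 15.1%, at the high-coordinate end of chromosome 10, and 66.7%, at the low-coordinate end of chromosome 13, where it rests on 3 regions. Among the 35 windows with at least 10 end regions, the median replicate 1 fold enrichment was highest at the high-coordinate end of chromosome 6, at 13.9. It was lowest at the high-coordinate end of chromosome 15, at 2.09, where 6 of 10 end regions were of high background.

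**Figure D3:**
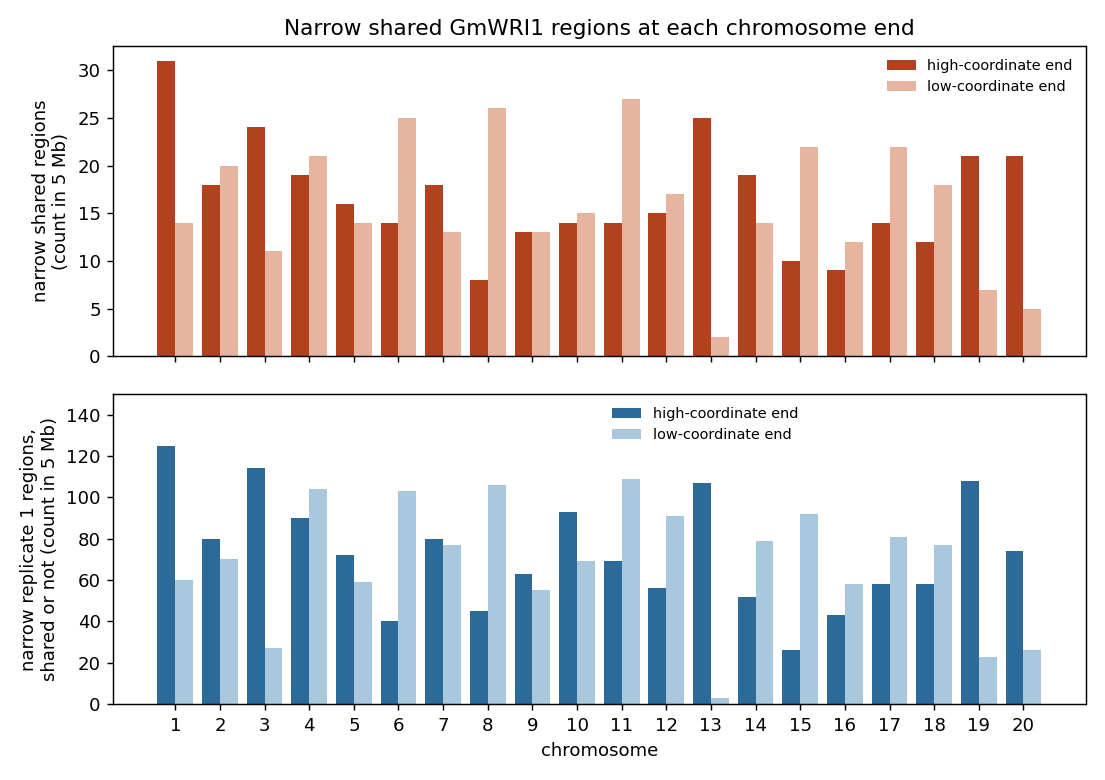
End regions (upper panel) and all narrow replicate 1 regions, shared or not (lower panel), counted in the 5 Mb at the high-coordinate end (dark bars) and low-coordinate end (light bars) of each chromosome (horizontal). The counts of end regions run between 2, at the low-coordinate end of chromosome 13, and 31, at the high-coordinate end of chromosome 1, and the lower panel leans the same way on 16 of 19 chromosomes with unequal counts.

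Within the windows the end regions did not pile up at the tips. From the tip inwards, the 5 successive steps of 1 Mb held 129, 140, 143, 119 and 122 end regions. The shared fraction was 20.98% in the outermost step (Wilson 95% interval 17.9% to 24.4%) and 25.2% in the innermost (21.5% to 29.3%). The median replicate 1 fold enrichment was between 7.96 and 9.38 over the steps. In the outermost step 76 end regions were at high-coordinate ends and 53 at low-coordinate ends, and in the innermost the numbers were 51 and 71. The last listed region stands for the end of each chromosome at the high-coordinate side only, so the outermost steps of the sides are not measured alike. The low-coordinate end region nearest to a tip began at 10302 on chromosome 10.

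**Figure D4:**
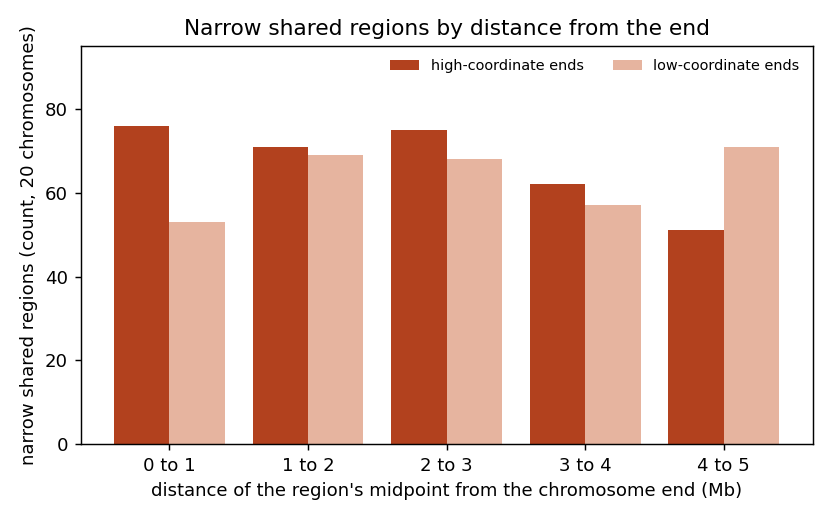
End regions (vertical, count over 20 chromosomes) by distance of the midpoint from the chromosome end (horizontal, steps of 1 Mb), at high-coordinate ends (dark bars) and low-coordinate ends (light bars). The sums per step lie between 119 and 143, and the high-coordinate bars are the higher in every step but the innermost.

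Neighbouring end regions of a window were a median of 172240 bp apart. Only 15 of 613 gaps were 2000 bp or shorter, and 10 of these joined high-background regions. Of the others, a pair near Glyma.13G361900 on chromosome 13, 788 bp apart, had fold enrichments of 7.74 and 7.94 in replicate 1 and 7.67 and 8.35 in replicate 2. A pair near Glyma.14G211800 on chromosome 14, 1954 bp apart, was unequal. Its first region had 21.3 in replicate 1 and 14.8 in replicate 2, and its second had 13.3 in replicate 1 and 4.78 in replicate 2. Another replicate 1 region of any kind lay within 2000 bp of 80 end regions, and 134 had none within 50000 bp.

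The 12 end regions of highest mean enrichment were at least 30.2-fold enriched in each replicate. Their summits were at most 20 bp apart, and 4 of the 12 held a site of the study's list of fatty acid and triacylglycerol genes. Genes are those the study's tables name for the interval, and they are assignments by position. The strongest was on chromosome 15 from 4139460 to 4140177, beside Glyma.15G052500, the homolog of hydroxyacyl-ACP dehydratase (HAD), which carries out the dehydration step of the fatty acid cycle. It was enriched 54.4-fold in replicate 1 and 45.6-fold in replicate 2, a mean of 49.99 ± 6.22 (SD, n = 2). The summit held 245 fragments in replicate 1 (exact Poisson 95% interval 215 to 278) and 165 in replicate 2 (141 to 192).

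Several of the strongest sites lay at genes outside fatty acid synthesis. Glyma.12G056900, a homolog of the zinc transporter ZTP29, had a region from 4127593 to 4128228 on chromosome 12 with 47.6 in replicate 1 and 44.3 in replicate 2. Glyma.09G260900, annotated as the cytochrome P450 CYP71A26, had 45.5 in replicate 1 and 43.6 in replicate 2 (chromosome 9, 47907928 to 47908570). Glyma.03G232800, annotated as importin alpha IMPA-2, a nuclear import adaptor, had 42.7 in replicate 1 and 43.9 in replicate 2 (chromosome 3, 43372510 to 43373208). These 3 regions differed little between replicates, with SDs of 2.34, 1.29 and 0.840 around means of 46.0, 44.6 and 43.3.

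An end region without a named gene, on chromosome 5 from 39488090 to 39488719, had 43.6 in replicate 1 and 42.3 in replicate 2, with summits at the same base. Glyma.07G029800 is a homolog of ROD1, which in Arabidopsis moves phosphocholine between phosphatidylcholine and diacylglycerol and so shapes the fatty acids of seed oil. Its region on chromosome 7 from 2380467 to 2381240 had 39.5 in replicate 1 and 38.0 in replicate 2. This gene has no site on the study's list, though another ROD1 homolog, Glyma.08G213100, is listed there under triacylglycerol biosynthesis. The remaining genes outside the fatty acid list were a pentatricopeptide repeat gene (Glyma.09G237200), a kelch repeat gene (Glyma.13G360600) and Glyma.06G297400. Their fold enrichments were 37.1, 40.6 and 40.5 in replicate 1 and 38.9, 33.7 and 30.2 in replicate 2.

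At the other end of the scale, the 3 lowest replicate 1 values among end regions were 1.49, 1.52 and 1.54, all at high background. The lowest without high background were 3.22, 3.34 and 3.51, with 23, 27 and 30 fragments in replicate 1. Their replicate 2 fold enrichments were 5.16, 4.80 and 4.66, the higher in each case. The widest end regions were 796, 795 and 793 bp wide, with 11.2, 8.42 and 1.95 in replicate 1. The shared regions near ends just past the width limit were 805, 810 and 812 bp wide, with 7.91, 25.4 and 24.7. The innermost end region ended at 4997449 on chromosome 14 and had 9.81 in replicate 1, and the nearest region outside a window began at 5016474 on chromosome 11 and had 6.41. The smallest overlap between replicates was 96 bp.

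The study lists 119 binding sites at fatty acid and triacylglycerol (FAT) genes, chosen for binding at a later embryo stage, so the list is not independent evidence of binding. Its 110 genes are close in number to the FAT genes that the study calls direct targets. Direct targets were also chosen for higher expression in cotyledon tissue than in seed coat. FAT genes without that expression may therefore be missing from the counts below. Of these sites, 56 lay within 5 Mb of a chromosome end, and 28 of the 56 fell in an end region. A further 3 fell in shared regions of at least 800 bp, 9 in regions seen in replicate 1 alone and 16 in none. Of the 63 sites elsewhere, 30 fell in narrow shared regions, 3 in wider ones, 13 in replicate 1 alone and 17 in none. The 28 end regions with a FAT site divided equally between high-coordinate ends (14) and low-coordinate ends (14), and none was of high background.

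End regions with a FAT site were among the strongest. They reached a median of 30.01-fold in replicate 1 (95% interval 21.8 to 33.6) and 22.8-fold in replicate 2 (14.8 to 27.2). The 625 other end regions had medians of 8.51-fold in replicate 1 and 5.996-fold in replicate 2. Their median width was 615 bp, against 372 bp. Both replicates exceeded the median of all end regions at 26 of the 28, and 18 were among the 66 of 653 end regions of highest mean enrichment. The share of all end regions above both medians is not given here. Because the sites were listed for binding of the same factor, the selection itself favours strong regions. These counts describe the selected regions and are no test of FAT genes. In the 30 narrow shared regions elsewhere with a FAT site, the median was 29.7 in replicate 1 (20.9 to 33.4) and 19.2 in replicate 2 (17.4 to 25.1), and the intervals overlap those of the end regions.

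In carbon supply, the end regions lay at genes of sucrose cleavage and of the last step to pyruvate. The listed sites near ends at PFK2, PGM2, GAPC1 and SUS3 homologs, of the steps between or of sucrose cleavage, fell in no end region. Sites at PGM2 (4.42-fold), GAPC1 (4.99-fold) and SUS3 (4.27-fold) lay in regions seen in replicate 1 alone. A site at the sugar isomerase homolog Glyma.19G017200 lay in a shared region too wide for the rule, with 21.4 in replicate 1 and 6.78 in replicate 2. Where a gene is given as a pair of values, both are fold enrichments, replicate 1 first. The region at a homolog of sucrose synthase SUS4, which cleaves sucrose (Glyma.17G045800), was enriched 14.7-fold in replicate 1 and 7.45-fold in replicate 2. Plastid pyruvate kinase makes the pyruvate used for fatty acids. Its alpha subunit homologs had 45.8 and 24.5 at Glyma.20G211200 and 18.6 and 10.9 at Glyma.10G255100. The beta subunit homolog Glyma.16G173100 had 25.5 in replicate 1 and 16.2 in replicate 2.

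Plastid pyruvate dehydrogenase, which makes acetyl-CoA, had 5 end regions. The E1 alpha homologs had close values, 37.5 in replicate 1 and 42.5 in replicate 2 at Glyma.07G049600 on chromosome 7, and 39.0 and 37.5 at Glyma.16G018300 on chromosome 16. Summit fragments in replicate 1 numbered 261 (exact Poisson 95% interval 230 to 295) at Glyma.07G049600 and 215 (187 to 246) at Glyma.16G018300. The E3 homologs of LPD1 had 33.1 and 21.8 at Glyma.07G241600 and 29.3 and 31.9 at Glyma.17G032300. The E1 beta homolog Glyma.17G231400 was lower, with 16.8 in replicate 1 and 14.8 in replicate 2.

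Acetyl-CoA carboxylase, which makes malonyl-CoA, and a related biotin attachment domain protein together had 6 end regions. The biotin carboxylase homologs of CAC2 had 31.5 in replicate 1 and 30.4 in replicate 2 at Glyma.05G221100, and 31.2 and 19.97 at Glyma.08G027600. The biotin carboxyl carrier homologs of BCCP2 had 23.9 and 25.6 at Glyma.18G265300 and 21.8 and 12.2 at Glyma.19G028800. The 2 homologs of AT3G56130 had 36.9 and 24.8 at Glyma.11G233700 and 35.0 and 29.1 at Glyma.18G023300. AT3G56130 is a biotin attachment domain protein (BADC), of a family that lowers carboxylase activity in Arabidopsis. All 6 end regions were above 20-fold in replicate 1, and BCCP2 at Glyma.19G028800 was the lowest in replicate 2.

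In the fatty acid cycle, the acyl carrier homologs of ACP3 had 31.0 in replicate 1 and 27.2 in replicate 2 at Glyma.03G242600, whose region also touches Glyma.03G242500, and 22.7 and 15.3 at Glyma.19G240100. The ACP4 homolog Glyma.20G230100 had 30.7 and 23.9. The ketoacyl-ACP reductase homologs, of the first reduction, had 41.7 and 27.2 at Glyma.18G009200 and 33.6 and 23.8 at Glyma.11G248000. Those of enoyl-ACP reductase (MOD1), of the last reduction, had 27.9 and 16.5 at Glyma.12G027300 and 13.2 and 12.6 at Glyma.08G345900.

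Among the listed sites, condensing enzymes of the plastid cycle had 1 end region. The region at the KASI homolog Glyma.08G024700 was the weakest of the 28, with 3.88 in replicate 1 and 4.04 in replicate 2. It had 19 summit fragments in replicate 1 (exact Poisson 95% interval 11.4 to 29.7) and 18 in replicate 2 (10.7 to 28.4). Other KASI homologs lay elsewhere on the chromosomes and were strong, with 49.03 in replicate 1 and 41.04 in replicate 2 at Glyma.08G084300, and 30.7 and 25.7 at the first of the sites of Glyma.05G129600. The gap between Glyma.08G024700 and these was far larger than the difference between replicates at any of them. Other sites near ends at condensing enzymes of the plastid cycle fell outside the end regions. A KASIII homolog, Glyma.09G277400, lay in a wider shared region with 24.7 in replicate 1 and 14.5 in replicate 2, another, Glyma.15G003100, in replicate 1 alone with 4.45, and the KASII homolog Glyma.17G047000 in no region.

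Genes of reducing power and elongation completed the list. The 6-phosphogluconate dehydrogenase homolog Glyma.08G020500, of the pathway that supplies NADPH, had 48.4 in replicate 1 and 34.1 in replicate 2. The glucose-6-phosphate dehydrogenase (G6PD2) homolog Glyma.18G284600 had 16.1 and 12.1 in its end region and 41.6 and 18.2 in a wider shared region of the same gene. The plastid malate dehydrogenase homolog Glyma.05G026300 had 6.00 and 7.88, against 31.0 and 17.4 at its copy Glyma.17G100600 elsewhere. KCS4, of very long chain elongation, had 15.6 and 9.83 at Glyma.06G012500.

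The 28 genes fell under 19 Arabidopsis homologs, and 9 of these had 2 soybean copies among the end regions, always on different chromosomes. In 6 of the 9 pairs the copies were within 2-fold of each other in both replicates, and in 6 the same copy was the higher in both. The pyruvate kinase alpha pair was the only one over 2-fold apart in both, with a log2 ratio of Glyma.20G211200 to Glyma.10G255100 of 1.301 in replicate 1 and 1.16 in replicate 2. The MOD1 pair was over 2-fold apart in replicate 1 alone, and the BCCP2 pair in replicate 2 alone. Copies were paired because both lay in end windows, not as known duplicates of each other. Pyruvate kinase alpha had other bound copies elsewhere, Glyma.10G178900 with 52.6 and 46.3 and Glyma.20G136200 with 30.0 and 21.6. MOD1 and BCCP2 also had narrow shared copies elsewhere.

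**Figure D5:**
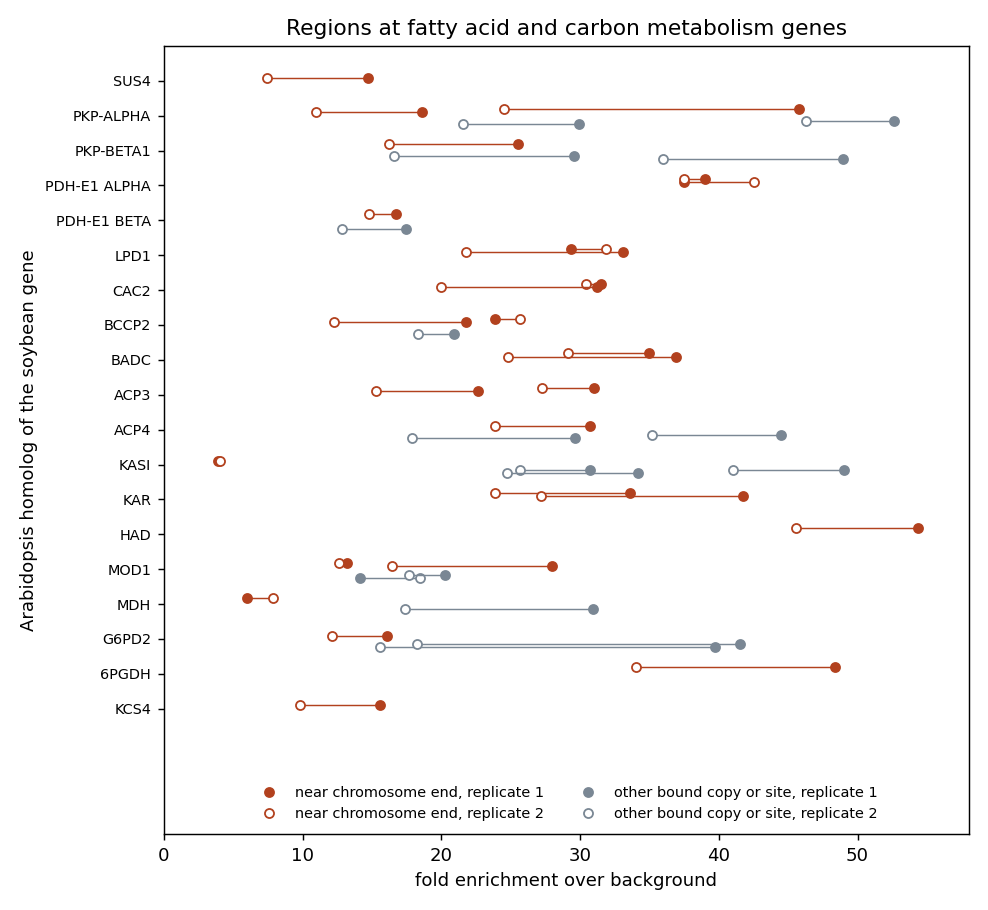
Fold enrichment (horizontal) of the 28 end regions with a FAT site (red) and of other shared regions at sites with the same Arabidopsis homolog (grey), by homolog (vertical, carbon supply at the top). Filled points are replicate 1, open points are replicate 2, and a line joins the replicates of a region. HAD reaches 54.4 and 45.6, while the KASI region near an end, at 3.88 and 4.04, lies far below its copies elsewhere.

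Of 10 seed regulator names searched (WRI1, LEC1, L1L, ABI3, FUS3, LEC2, ABI4, AGL15, bZIP67 and AREB3), 1 had an end region. It lay at Glyma.07G268100, whose listed Arabidopsis homolog is L1L, a NF-YB subunit related to LEC1. That interval, 44130735 to 44131292 on chromosome 7, was enriched 25.7-fold in replicate 1 and 10.8-fold in replicate 2, with 143 and 67 summit fragments. Names were matched to the study's annotation, so a soybean gene that the study calls GmLEC1 may stand under another name. An absent name is thus not shown to lack an end region. The table of cot stage bound regions used was shortened and runs only partly beyond chromosome 15. Regulators on later chromosomes were therefore not all searched.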

How the data were processed

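Per the submitters' processing notes, the authors used Bowtie 0.12.7 and MACS3. Narrow regions were called at a q limit of 0.01 for each ChIP replicate separately, and depths of whole libraries were not used. The deposited fold enrichment is a ratio at the summit, with a −log10 p-value and a −log10 q-value beside it. Summit fragments and background were recovered from the ratio and the p-value, with a whole fragment number within a relative error of 0.0001 for 100% of regions in both lists. Recovery and pairing were tested on simulated data. Each end region was paired with its overlapping replicate 2 region of highest fold enrichment. Shares have Wilson 95% intervals, medians binomial order-statistic intervals and fragments exact Poisson intervals. Fragments carry no molecular identifiers, so intervals cover counting error only. No test was run.

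Gene names, homologs and FAT sites came from the study's supplement, whose cot stage table is shortened. Regions were named by rule: the 12 of highest mean enrichment, those with a FAT site centre, the lowest and those nearest the width limit, the fullest and emptiest windows, and regulator genes. Regions and lists were chosen with earlier results of these data known. Sequence, motifs and gene features were not analysed here. Python 3.11.15 ran with scipy 1.17.1, numpy 2.4.6, matplotlib 3.10.9 and pandas 2.3.3.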

Additional observations from a re-analysis of the deposited data

How the results depend on the processing

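Over 11 results and 13 alternatives, 129 values were computed, and 107 stayed within the interval of the reported value, or within 1.5 times for the count. With widths under 600 bp, 21.1% of narrow regions near ends and 24.2% elsewhere were shared, and the median replicate 1 fold enrichment was 8.04. A window of 3 Mb gave 412 end regions, 26.0% of the narrow shared regions, and one of 8 Mb gave 60.0%. An overlap of 50% of both regions gave 18.7% shared near ends and 22.4% elsewhere, a median replicate 2 fold enrichment of 6.70 and a log2 ratio of replicates of -0.36. With summits within 100 bp, 21.6% were shared near ends. At q below 1e-05 it was 25.03%, with a median replicate 2 fold enrichment of 6.48. Without high-background regions, the end windows held 43.8% of the narrow shared regions, and 22.8% were shared elsewhere. Applied to the replicate 2 list, the rule gave a median replicate 1 fold enrichment of 9.78, a log2 ratio of -0.53 and a summit distance of 27 bp. The causes of these shifts were not tested.

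Leaving out a replicate removes the overlap rule. The count of end regions was then between 868 and 2822, and their share between 42.7% and 43.8%. The high-coordinate share was between 51.3% and 51.5%. The median fold enrichment was 4.80 without replicate 2 and 5.77 without replicate 1. No paired analysis was possible because each input was used by the authors to call its ChIP list and has no values of its own here. The fewest fragments at a listed summit were 14 in replicate 1 and 12 in replicate 2. The part of depth in which regions were listed was not tested, and a region absent from replicate 2 is not shown to be unbound.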
